A study of Mus musculus with 6 samples.

Results

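The myoblast fusion genes described here are the fusogens *Mymk* and *Mymx* and 7 genes of cell surface proteins linked to fusion, the cadherins *Cdh15* and *Cdh2*, the immunoglobulin superfamily genes *Kirrel*, *Jam2* and *Jam3*, and the adhesion receptors *Adgrb1* and *Adgrb3*. They were chosen by symbol for their known roles, with earlier results of these data known. Each matched 1 row, giving 9 of the 55421 genes in the count table. C2C12 is a mouse myoblast line that differentiates into multinucleated myotubes in low serum. The normal group (CUG5) and the DM1 group (CUG200) were C2C12 cells stably transfected, under G418 selection, with a *GFP* plasmid carrying 5 or 200 CTG repeats behind the *GFP* coding sequence. Both groups therefore carry the plasmid and the selection, and CUG200 models the repeat expansion of myotonic dystrophy type 1 (DM1) outside its own gene. Total RNA of 3 libraries per group was sequenced on day 4 of differentiation. The study calls these biological replicates but does not say whether they came from separate transfections or cultures, so the p-values measure only the spread between these libraries.

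Skeletal muscle fibres form when committed myoblasts align, adhere through surface proteins and merge their membranes. Myomaker, the multi-pass membrane protein made from *Mymk*, is needed for the first mixing of membrane lipids, and myomixer, the small membrane protein made from *Mymx*, for the opening of the fusion pore. Cadherins and immunoglobulin superfamily proteins act before that step by holding the cells together, and the actin cytoskeleton pushes the apposed membranes against each other. The question put to the libraries was how the RNA of these genes differed between the groups while myotubes were forming.

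The library totals were between 61707889 and 80957325 counts, where a count stands for 75 aligned bases, so counts are larger than the number of fragments. Levels are given as CPM, counts relative to the library total after TMM scaling. A fragment is usually 4 counts, so 3 counts, which equal 0.0371 to 0.0486 CPM depending on the library, are less than a fragment. All 22 differentiated muscle markers were detected in both groups. Their summed level was between 22910 and 24590 CPM in the normal group and between 15146 and 17038 CPM in the DM1 group. In total RNA, fewer cells of a type and less RNA per cell cannot be told apart, which applies to every difference below.

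*Cdh15* and *Cdh2* were the fusion genes that passed the test, and both were lower in the DM1 group. Of the 9 genes, 7 had enough counts to be tested, 2 fell and 0 rose past the threshold of 0.05 on the adjusted p (quasi-likelihood test of edgeR, Benjamini-Hochberg adjustment over 19005 genes). Of those counted as not higher, *Mymx* had an unadjusted p of 0.0146 in edgeR, and DESeq2 and limma also called 0 higher. The same threshold called 8.73% of all tested genes lower and 7.13% higher, or 15.9% in either direction. No fusion gene also passed an absolute log2 fold change of 1, which 2.18% of all tested genes did (1.36% higher and 0.816% lower). The levels of the groups did not overlap for 3 of the 7 genes, lower for *Cdh15* and *Cdh2* and higher for *Mymx*, beside 37.2% of all tested genes (19.3% lower and 17.9% higher).

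**Figure D1:**
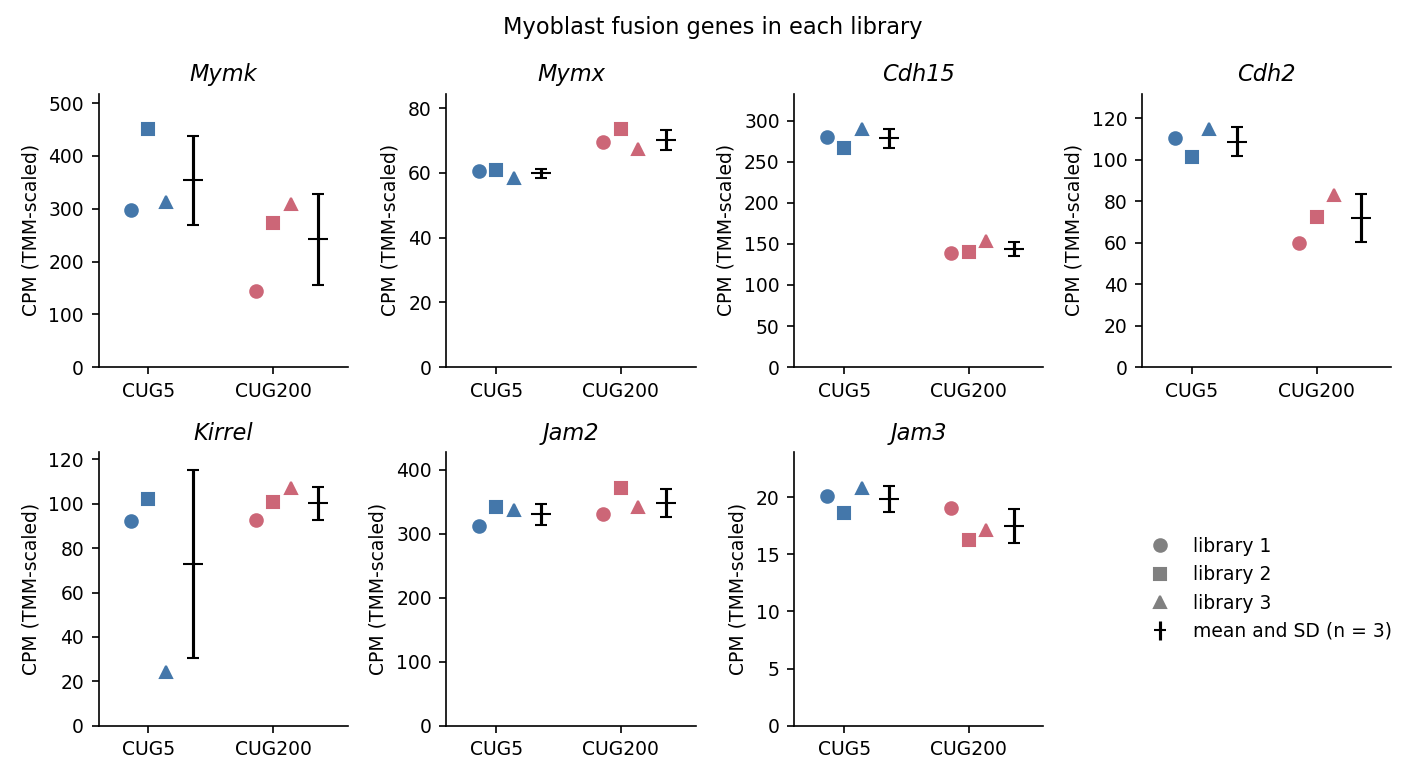
Level of the 7 tested fusion genes in every library, as TMM-scaled CPM on axes that start at 0, with 3 points per group and the mean and SD beside them. The *Cdh15* points lie between 267 and 289.6 CPM in the normal group and between 138 and 153 CPM in the DM1 group, and 1 normal library of *Kirrel* lies apart at 24.3 CPM.

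The fusogen *Mymk* (ENSMUSG00000009214) lies on the minus strand of GRCm38 at chr2:27061636-27072179, with 2 annotated transcripts. The fusogen *Mymx* (ENSMUSG00000079471) lies on the minus strand at chr17:45600971-45602102, with 4 annotated transcripts. The study used both as RT-qPCR markers of fusion and reported both as lower in the DM1 group during differentiation. In the day 4 libraries, described below, *Mymx* was not lower and *Mymk* did not pass the test. The reason for this difference was not tested. The study's primers are shown because they give the stretch of each transcript that those assays read. All 4 matched transcripts of their target and 0 other genes.
Myomaker-F: atcgctaccaagaggcgtt
Myomaker-R: cacagcacagacaaaccagg
Myomixer-F: ctgagcagttctgactggtg
Myomixer-R: caccatcgggagcaatggaa
The *Mymk* forward primer lies in coding sequence of exon 1 (chr2:27071928-27071946) and matches 1 of the 2 transcripts. The reverse primer lies in coding sequence of exon 2 (chr2:27067427-27067446) and matches both. The *Mymx* forward primer lies in the untranslated part of exon 1 (chr17:45602038-45602057) and matches 2 of the 4 transcripts, while the reverse primer lies in coding sequence of exon 2 (chr17:45601645-45601664) and matches all 4. The gene counts used here sum over all transcripts of a gene, including those that the primer pairs do not span.

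The level of *Mymk* was 298, 451 and 313 CPM in the 3 normal libraries, a mean of 354 ± 84.3 CPM (SD, n = 3). In the DM1 group it was 144, 273 and 309 CPM, a mean of 242 ± 86.7 CPM (SD, n = 3). The highest DM1 library lay above the lowest normal library, so the groups overlapped. The fitted log2 fold change was -0.55 (SE 0.314, 95% interval -1.31 to 0.22) and did not pass the test (adjusted p = 0.304, edgeR with Benjamini-Hochberg adjustment). With 1 library left out the value was between -0.76 and -0.27, at -0.27 without DM1 library 1, -0.34 without normal library 2 and -0.76 without DM1 library 3. The interval holds both no change and a fall by more than the log2 cutoff of 1. In DESeq2 the value was -0.54 (adjusted p = 0.0916), and in limma on log2(TPM + 1) and log2(TPM + 0.1) it was -0.72. Over the 16 alternatives the adjusted p was between 0.0916 and 0.572.

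*Mymk* varied among replicates more than the median expressed gene. Its coefficient of variation was 23.8% in the normal group and 35.8% in the DM1 group. Over the 9348 tested genes above 10 CPM in both groups, the median was 5.99% and 10.05%. The highest normal library held 1.51 times the level of the lowest, and the highest DM1 library 2.15 times.

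The level of *Mymx* was 60.6, 60.8 and 58.3 CPM in the normal group, a mean of 59.9 ± 1.37 CPM (SD, n = 3). It was 69.5, 73.5 and 67.3 CPM in the DM1 group, a mean of 70.1 ± 3.13 CPM (SD, n = 3). Every DM1 library was above every normal library, but the log2 fold change of 0.23 (SE 0.0748, 95% interval 0.06 to 0.40) did not pass the threshold after adjustment (adjusted p = 0.0732, edgeR with Benjamini-Hochberg adjustment). The separation of the groups depended on the scale, since the length-scaled TPM values deposited by the authors overlapped. They were 163, 149 and 139.8 TPM in the normal group and 144, 166 and 170.1 TPM in the DM1 group. With DM1 library 3 left out the call was gained (adjusted p = 0.0404, edgeR), and in limma on log2(TPM + 1) and log2(TPM + 0.1) the log2 fold change was 0.09. Over the 16 alternatives the adjusted p was between 0.0404 and 0.683.

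Among the cadherins, *Cdh15* (ENSMUSG00000031962, plus strand, chr8:122847966-122867397, 14 exons) encodes M-cadherin, the calcium-dependent adhesion protein of the muscle lineage. Its level was 279.6, 267 and 289.6 CPM in the normal group, a mean of 279 ± 11.4 CPM (SD, n = 3). It was 138, 139.9 and 153 CPM in the DM1 group, a mean of 144 ± 8.29 CPM (SD, n = 3). The groups were far apart relative to their spread, and *Cdh15* was 1.94-fold lower in the DM1 group (log2 fold change -0.95, SE 0.0836, 95% interval -1.14 to -0.76, adjusted p = 0.00104, edgeR with Benjamini-Hochberg adjustment). It passed the test in all 16 alternatives, with log2 fold changes between -1.08 and -0.91.

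The promoter of *Cdh15* is shown for its E-boxes, the sequence CANNTG, which the products of *Myog* and *Myod1* bind. It was chosen after the falls of *Cdh15* and *Myog* were seen, and a link between these falls was not tested. RefSeq promoters of 300 bases (250 before and 50 after the RefSeq start, GRCm38.p6) were given for 3 of the 9 genes. The *Cdh15* promoter (plus strand, chr8:122848124-122848423) held 4 matches to CANNTG, which reads the same on both strands, the *Adgrb3* promoter held 2 and the *Kirrel* promoter 0. The median over 32851 promoters was 1 match, 72.3% had at least 1, 39.6% at least 2 and 6.49% at least 4. The RefSeq start of *Cdh15* lies inside the gene span of the deposited files, which begins upstream of it and of all 4 matches. Windows of 30 bases around the 3 E-boxes that lie farthest from the start follow, with the E-box in capitals.
Cdh15 E-box 236 bases before the start: aggcactgatcaCATATGctgtcactcaga
Cdh15 E-box 135 bases before the start: caggcccacctaCATGTGctgtcactcatc
Cdh15 E-box 32 bases before the start: cgccccaccacaCACGTGcagtcccttggc
These windows span chr8:122848126-122848155, chr8:122848227-122848256 and chr8:122848330-122848359. The first form, CATATG, was found in 3.91% of all promoters, CATGTG in 14.2% and CACGTG in 7.15%. The fourth match, CACTTG, began 2 bases before the start, and this form was found in 13.6% of promoters. A match says only that these letters are present, and binding was not measured in these libraries.

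*Cdh2* (ENSMUSG00000024304, minus strand, chr18:16588877-16809246) encodes N-cadherin, which myoblasts share with neurons and many mesenchymal cells. Its level was 111, 101 and 115 CPM in the normal group, a mean of 109 ± 6.90 CPM (SD, n = 3). It was 59.9, 72.5 and 83.1 CPM in the DM1 group, a mean of 71.8 ± 11.6 CPM (SD, n = 3). No DM1 library reached the lowest normal library, and *Cdh2* was 1.52-fold lower in the DM1 group (log2 fold change -0.60, SE 0.122, 95% interval -0.88 to -0.32, adjusted p = 0.0141, edgeR with Benjamini-Hochberg adjustment). This call was less firm than that of *Cdh15*. It was lost without normal library 1 (adjusted p = 0.0558, edgeR), without normal library 3 (0.0689) and without DM1 library 2 (0.0560), and in limma on log2(TPM + 1) and log2(TPM + 0.1) (0.0570 and 0.0553).

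**Figure D2:**
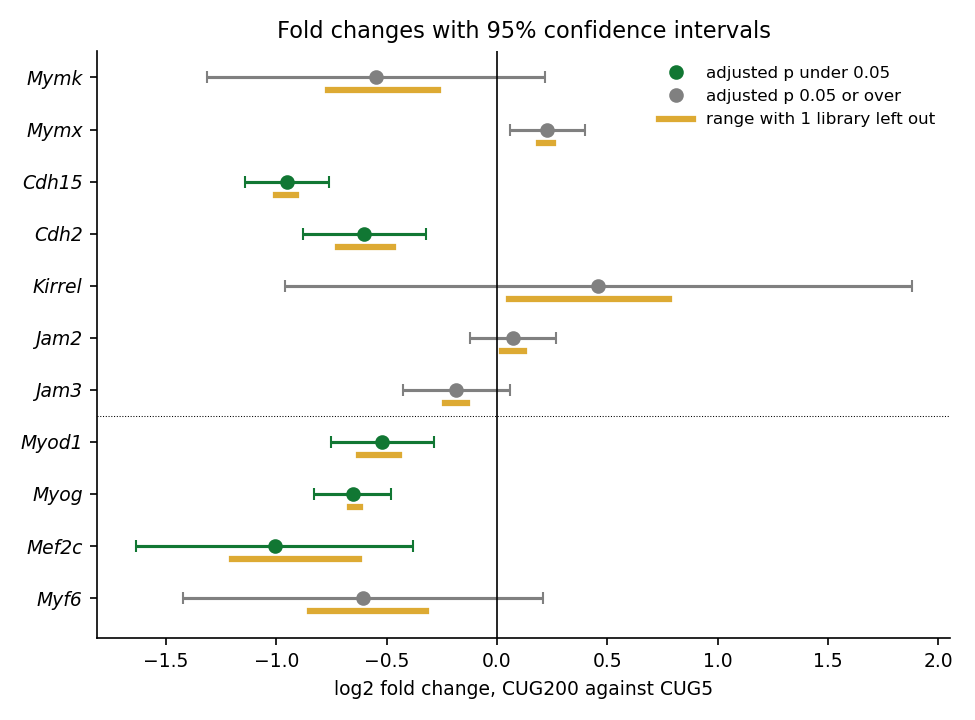
Log2 fold change (DM1 against normal) of the 7 tested fusion genes and of *Myog*, *Myod1*, *Mef2c* and *Myf6*, with the 95% interval of the edgeR fit and, as a thick bar below it, the range over the 6 fits that leave out 1 library. Green points passed the adjusted threshold. *Cdh15* at -0.95 and *Cdh2* at -0.60 lie left of 0 with their intervals, *Mymk* at -0.55 has an interval that crosses 0, and *Kirrel* has the widest interval of the fusion genes, from -0.96 to 1.88.

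*Kirrel* (ENSMUSG00000041734, minus strand, chr3:87078593-87174747), also written Kirrel1, encodes a relative of the fly recognition proteins that pair fusing myoblasts. Its level was 92.3, 102 and 24.3 CPM in the normal group and 92.6, 101 and 107 CPM in the DM1 group. Normal library 3 alone was low, at 1700 counts beside 6270 to 7758 counts in the other 5 libraries, and the highest normal library held 4.20 times its level. The log2 fold change of 0.46 (SE 0.549, 95% interval -0.96 to 1.88, adjusted p = 0.648, edgeR with Benjamini-Hochberg adjustment) rested on that library, and without it was 0.06 (adjusted p = 0.826).

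*Jam2* and *Jam3* encode junctional adhesion molecules that bind each other across cell contacts. *Jam2* (ENSMUSG00000053062, plus strand, chr16:84774123-84825928) was at 312, 342 and 337 CPM in the normal group and 330.2, 372 and 341 CPM in the DM1 group. The groups overlapped, with a log2 fold change of 0.07 (SE 0.0860, 95% interval -0.12 to 0.27, adjusted p = 0.625, edgeR with Benjamini-Hochberg adjustment), which turned to -0.026 in limma on the TPM values.

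*Jam3* (ENSMUSG00000031990, minus strand, chr9:27097384-27155421) was at 20.1, 18.6 and 20.8 CPM in the normal group and 19.1, 16.3 and 17.1 CPM in the DM1 group. These ranges also overlapped, whereas those of its TPM values did not (16.1 to 19.2 against 13.01 to 15.5 TPM). On counts the log2 fold change was -0.18 (SE 0.107, 95% interval -0.43 to 0.06, adjusted p = 0.290, edgeR with Benjamini-Hochberg adjustment). The intervals of both genes exclude a 2-fold difference in either direction on the count scale. *Jam3* shares 1159 exonic bases with *Gm48796* on the opposite strand, which was at 175 to 286 counts, and the strand setting of the counting is not given in the sources used here. Part of the *Jam3* level is therefore uncertain.

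*Adgrb1* (ENSMUSG00000034730, chr15:74516195-74589465) and *Adgrb3* (ENSMUSG00000033569, chr1:25067476-25829707) encode the receptors BAI1 and BAI3, which act upstream of Rac and the actin cytoskeleton in fusion. *Adgrb1* had 2, 0 and 0 counts in the normal group and 0, 0 and 5 in the DM1 group. *Adgrb3* had 0, 2 and 0 counts in the normal group and 0 in all 3 DM1 libraries. A fragment is usually worth 4 counts, so these values stand for about 1 fragment or less, and any difference was not detectable at this depth.

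To compare levels between genes, the deposited TPM values, which are scaled for transcript length, were ranked within each group. In the normal group the order of the mean TPM was *Mymk* (428 ± 93.5), *Mymx* (151 ± 11.4), *Cdh15* (144 ± 9.41), *Jam2* (136 ± 3.07), *Cdh2* (37.8 ± 3.22), *Kirrel* (19.4 ± 10.2) and *Jam3* (17.8 ± 1.57; SD, n = 3 for each), followed by *Adgrb3* and *Adgrb1*, both near 0. The ranges of *Mymx* and *Cdh15*, of *Cdh15* and *Jam2*, and of *Kirrel* and *Jam3* overlapped. Only *Mymk* stood above all other fusion genes in every normal library.

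In the DM1 group *Mymk* was still first by its mean (276 ± 120.0 TPM), followed by *Mymx* (160.0 ± 13.9), *Jam2* (134 ± 16.6), *Cdh15* (68.6 ± 11.04), *Cdh2* (23.1 ± 6.04), *Kirrel* (22.6 ± 3.92) and *Jam3* (14.3 ± 1.24; SD, n = 3 for each). *Cdh15* and *Jam2* exchanged places between the groups. The ranges of *Mymk* and *Mymx*, of *Mymx* and *Jam2*, and of *Cdh2* and *Kirrel* overlapped.

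**Figure D3:**
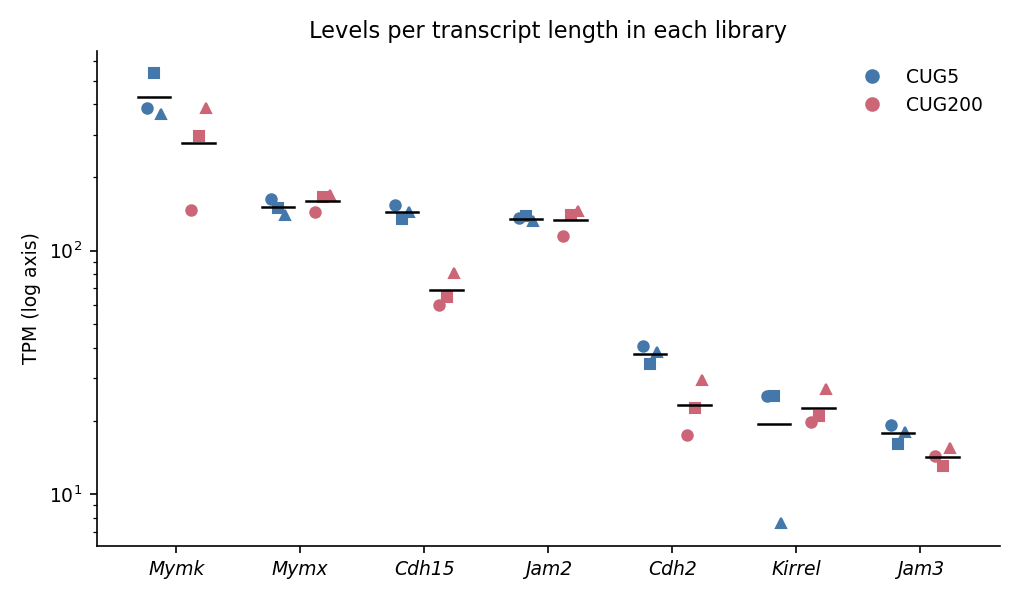
Level of the 7 tested fusion genes in TPM on a log axis, ordered by the normal group's mean, with 1 point per library, a bar at the mean and the 2 groups side by side. *Mymk* is highest by its mean in both groups (428 and 276 TPM), and *Cdh15* drops from 144 to 68.6 TPM while *Jam2* lies at 136 and 134 TPM.

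The fusogens are switched on by the myogenic transcription factors, so their levels were set beside those of the regulators. *Myog*, the regulator of terminal differentiation, was at 323, 322 and 319 CPM in the normal group and 209.9, 208 and 195 CPM in the DM1 group. It fell without overlap (log2 fold change -0.65, SE 0.0767, adjusted p = 0.00227, edgeR with Benjamini-Hochberg adjustment). *Myod1*, which commits cells to the lineage, was at 60.6, 59.3 and 65.1 CPM in the normal group and 39.2, 40.8 and 49.1 CPM in the DM1 group (-0.52, SE 0.103, adjusted p = 0.0129). This call was lost without normal library 3 (adjusted p = 0.0685, edgeR) and without DM1 library 2 (0.0628), and in limma on log2(TPM + 1) and log2(TPM + 0.1) (0.0534 and 0.0515).

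*Mef2c*, a partner of the myogenic factors, was at 58.4, 67.5 and 119 CPM in the normal group and 39.9, 39.1 and 42.6 CPM in the DM1 group (log2 fold change -1.01, SE 0.262, adjusted p = 0.0471, edgeR with Benjamini-Hochberg adjustment). Without normal library 3, the highest, the log2 fold change was -0.62 (adjusted p = 0.0238, edgeR). The call was lost when normal library 2 or any DM1 library was left out, and when low genes were not filtered. *Myf6*, a late regulator, had a mean of 1.11 CPM in the normal group and 0.732 CPM in the DM1 group and did not pass (-0.61, SE 0.359, adjusted p = 0.296, edgeR), and its value was -0.32 without DM1 library 1 and -0.85 without DM1 library 2. Of 17 tested myogenic regulators, 5 fell (29.4%, beside 8.73% of all tested genes), 2 rose (11.8%, beside 7.13%) and the median log2 fold change was -0.37, beside 0.02 over all tested genes. Among the others, *Tcf12* (-0.45), a dimer partner of MyoD, fell. *Snai1* (0.84), a repressor at E-boxes, and *Id2* (0.41), an inhibitor of basic helix-loop-helix dimers, rose. The call of *Id2* was lost in 5 of the 6 fits that leave out 1 library and in limma on TPM, with an adjusted p of up to 0.193, and that of *Tcf12* in 3 and in limma, up to 0.0909. That of *Snai1* held in all 6 and had an adjusted p of 0.0521 in limma on log2(TPM + 1).

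Relative to *Myog*, the groups were separated for *Mymx* and overlapped for *Mymk*. On the log2 scale *Myog* cancels from the difference between these 2 ratios. That difference was tested only in TPM and after the values were seen, as the ratio of *Mymk* to *Mymx* (Other observations). The fall of *Myog* itself (log2 fold change -0.65) enters both ratios. The ratio of *Mymx* to *Myog* in CPM was 0.188, 0.188 and 0.183 in the normal group and 0.331, 0.354 and 0.345 in the DM1 group. All DM1 libraries were above all normal libraries, by 0.88 on the log2 scale or 1.84-fold (exact two-sided permutation p = 0.1, the smallest that 3 against 3 libraries allow; 0.2 after adjustment over the 8 ratios computed). Against the geometric mean of the 22 muscle markers the difference was 1.05 on the log2 scale, again without overlap (exact permutation p = 0.1). The ratio of *Mymk* to *Myog* was 0.922, 1.40 and 0.980 in the normal group and 0.686, 1.31 and 1.58 in the DM1 group. These ranges overlapped, with a log2 difference of 0.06 (exact permutation p = 1) that ranged from -0.19 to 0.41 with 1 library left out, and against the muscle markers the difference was 0.22 (exact permutation p = 0.8; 0.06 to 0.53 with 1 library left out).

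The cadherin ratios were added after the values were seen. The ratio of *Cdh15* to *Myog* was 0.866, 0.827 and 0.908 in the normal group and 0.660, 0.673 and 0.786 in the DM1 group. Relative to *Myog*, *Cdh15* was lower in every DM1 library, by a log2 difference of -0.30, and relative to the muscle markers by -0.13 (exact permutation p = 0.1 for each). *Cdh2* differed by 0.04 relative to *Myog* and by 0.21 relative to the markers, with overlapping ranges in both cases (exact permutation p = 0.9 and 0.2), and the first ranged from -0.10 to 0.19 with 1 library left out.

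**Figure D4:**
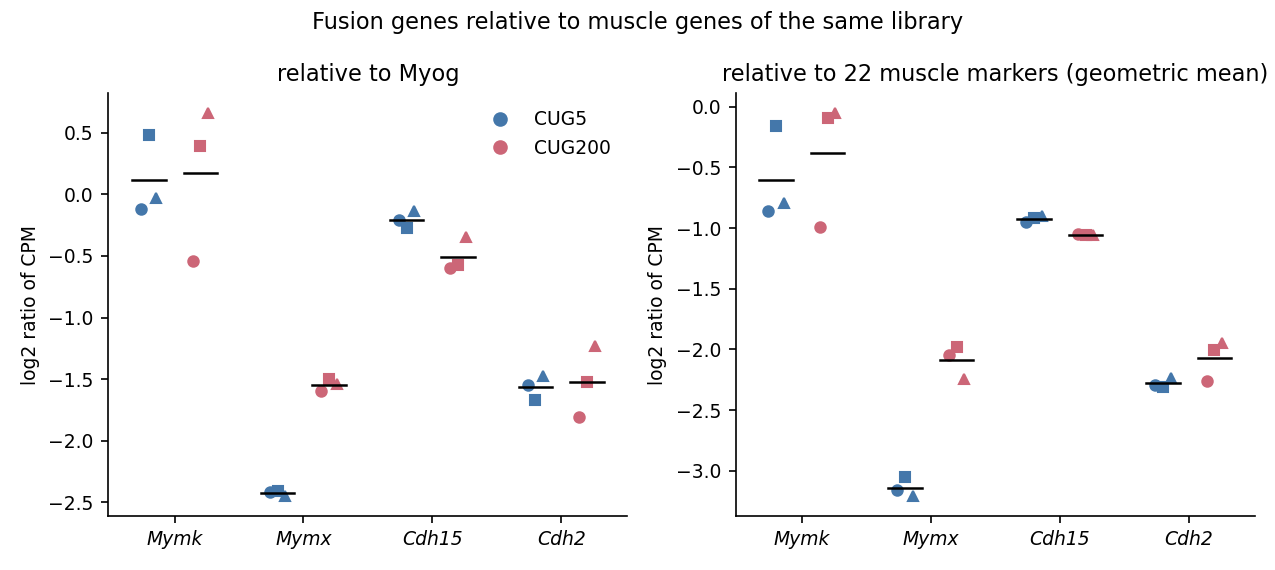
Log2 ratio of *Mymk*, *Mymx*, *Cdh15* and *Cdh2* to *Myog* and to the geometric mean of 22 muscle markers, with 1 point per library and a bar at the group mean. The *Mymx* ratios of the groups are separated by 0.88 and 1.05, whereas the *Mymk* points of the groups are interspersed.

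The wider fusion machinery was read from 5 lists, also chosen with earlier results of these data known, with 111 of their 121 genes tested. Of these, 23 fell (20.7%, beside 8.73% of all tested genes) and 8 rose (7.21%, beside 7.13%), with a median log2 fold change of -0.09 beside 0.02 over all tested genes. Among 28 genes named from the lists, 14 kept their call when each library in turn was left out. The other 14 lost it at least once, with adjusted p-values between 0.0501 and 0.163 (edgeR), most often without normal library 3 (13 genes) or DM1 library 2 (11 genes).

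The cytoplasmic partners of the cadherins that passed the test were all lower. Of 7 tested catenins and linkers, 4 fell (57.1%, beside 8.73% of all tested genes), the other 3 did not pass and the median log2 fold change was -0.46. *Ctnnb1* (beta-catenin), which binds the cadherin tail, went from 301 ± 17.6 to 211 ± 15.4 CPM (SD, n = 3; log2 fold change -0.51, adjusted p = 0.00868, edgeR). *Jup* (plakoglobin), its close relative, went from 88.1 ± 3.45 to 63.2 ± 2.40 CPM (SD, n = 3; -0.48, adjusted p = 0.00603, edgeR). *Ctnnd1* (p120 catenin), which keeps cadherins at the membrane, fell by 0.47 on the log2 scale (adjusted p = 0.0119, edgeR) and *Vcl* (vinculin), which ties the complex to actin, by 0.46 (adjusted p = 0.0250, edgeR). *Jup* and *Ctnnb1* kept the call in all 6 leave-outs, and *Ctnnd1* and *Vcl* did not. In limma on the TPM values *Jup* alone of the 4 passed, and *Ctnnb1* had an adjusted p of up to 0.121.

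Of 20 tested genes of other adhesion and recognition proteins, 4 fell (20%, beside 8.73% of all tested genes) and 3 rose (15%, beside 7.13%), with a median of 0.13. *Neo1* (neogenin), a netrin receptor that works with the myoblast receptor Cdon, went from 107 ± 4.37 to 61.3 ± 5.79 CPM (SD, n = 3; log2 fold change -0.80, adjusted p = 0.00211, edgeR). *Cd164* (-0.40), *Cd44* (-0.33), a hyaluronan receptor, and *F11r* (-0.29), the junctional adhesion molecule JAM-A, also fell, but each lost its call in 4 of the 6 leave-outs, with an adjusted p of up to 0.0885, 0.163 and 0.162. In the other direction, *Cdh11*, a cadherin of mesenchymal cells, went from 39.5 ± 1.79 to 58.3 ± 2.54 CPM (SD, n = 3; 0.56, adjusted p = 0.00409, edgeR). The laminin-binding integrin subunit *Itga3* (0.62, adjusted p = 0.00512, edgeR) and the metalloprotease *Adam12* (0.78, adjusted p = 0.0104, edgeR) rose as well. These 3 rises held in all 6 leave-outs and were lost in limma on the TPM values, with an adjusted p of up to 0.110 for *Cdh11*, 0.147 for *Itga3* and 0.183 for *Adam12*, while *Neo1* passed in all 16 alternatives.

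Of 42 tested genes for actin remodelling, 5 fell (11.9%, beside 8.73% of all tested genes) and 2 rose (4.76%, beside 7.13%), with a median of -0.07. These shares are near those of all genes, and the members are given as values only. The largest fall was that of *Cyfip2* (-1.11, adjusted p = 0.0108, edgeR), a subunit of the WAVE complex that drives branched actin, at a low level of 6.78 ± 0.503 against 3.14 ± 0.845 CPM (SD, n = 3). In limma on log2(TPM + 1) *Cyfip2* was at -0.65 and the call held. In limma on log2(TPM + 0.1) it was at -1.16 and the call was lost (adjusted p = 0.0578). Of 7 listed Arp2/3 subunits, *Arpc4* was at -0.49 (adjusted p = 0.00917, edgeR) and *Arpc3* at 0.52 (adjusted p = 0.0170, edgeR), and the other 5, between -0.20 and 0.20, did not pass. The adaptor *Nck2* (-0.58) and *Elmo2* (-0.33), which works with Dock proteins on Rac, fell, and the Rac activator *Dock5* (0.46) rose. None of these calls held in every leave-out.

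Of 26 tested genes for membrane remodelling and phosphatidylserine exposure, 6 fell (23.1%, beside 8.73% of all tested genes) and 2 rose (7.69%, beside 7.13%), with a median of -0.17. *Ano5* (-0.62, adjusted p = 0.00384, edgeR), a member of the anoctamin family needed for muscle membrane repair, *Ehd4* (-0.69) and *Ehd1* (-0.45) of endosomal recycling, and *Bin1* (-0.51), which bends membranes in muscle, were among those that fell. The phospholipid-binding annexins *Anxa5* (0.63, adjusted p = 0.00961, edgeR) and *Anxa1* (0.49, adjusted p = 0.0382, edgeR) rose. The calls of *Ano5*, *Ehd4* and *Bin1* held in every leave-out, and those of *Ehd1* and the annexins did not.

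Of 16 tested genes for soluble signals, 4 fell (25%, beside 8.73% of all tested genes) and 1 rose (6.25%, beside 7.13%), with a median of -0.04, and all 5 kept their call in every leave-out. Those that fell were *Fst* (follistatin), an inhibitor of myostatin and activins, with 21.3 ± 1.26 against 11.4 ± 1.05 CPM (SD, n = 3; -0.90, adjusted p = 0.00276, edgeR), the chemokine receptor *Cxcr4* (-0.77), the TGF-beta receptor *Tgfbr1* (-0.75) and the calcium-regulated transcription factor *Nfatc3* (-0.59). *Igf1*, a growth factor for muscle, rose (0.79, adjusted p = 0.00569, edgeR).

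**Figure D5:**
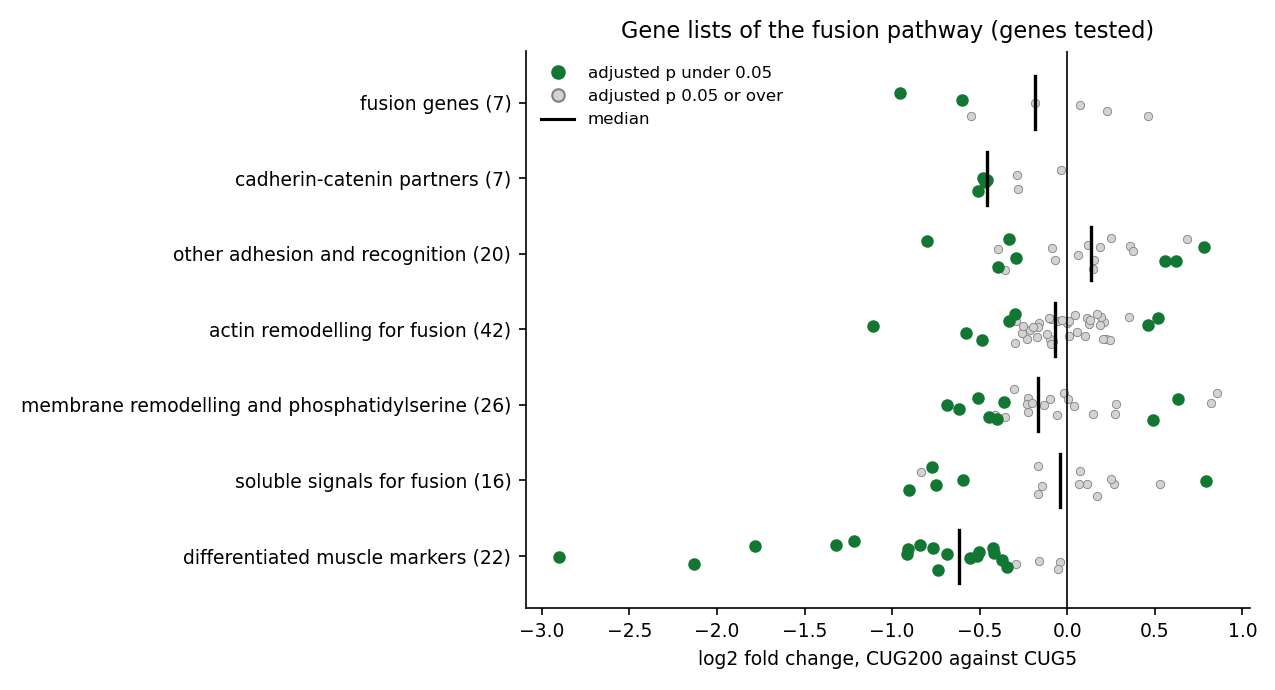
Log2 fold change of each tested gene in the fusion genes, 5 lists of fusion machinery and the muscle markers, with the median of each as a bar, called genes in green and the others in grey. The medians range from 0.13 for other adhesion genes to -0.62 for the muscle markers.

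Most tested markers of muscle and of fibroblasts differed between the groups as well, while no tested macrophage or adipocyte marker passed. Of 22 differentiated muscle markers, 18 fell (81.8%, beside 8.73% of all tested genes) and 4 did not pass, with a median of -0.62, so the falls of *Cdh15* and *Cdh2* stood beside a fall of muscle RNA in general. Of 13 tested markers of undifferentiated and reserve cells, 3 fell (23.1%, beside 8.73% of all tested genes) and 1 rose (7.69%, beside 7.13%). Of these falls, *Hes1* lost its call in 2 of the 6 leave-outs and *Sdc4* in 3, with an adjusted p of up to 0.0663 and 0.136 (edgeR). The fall of *Heyl* (-1.61, adjusted p = 0.00109, edgeR) and the rise of *Cd34* (0.97, adjusted p = 0.00305, edgeR) held in all 6. Of 7 tested fibroblast markers, 5 rose (71.4%, beside 7.13% of all tested genes) and 2 did not pass, and their summed level was between 4044 and 4488 CPM in the normal group and between 5088 and 5628 CPM in the DM1 group. Of these rises, that of *Dcn* was lost in 4 of the 6 leave-outs and in limma on the TPM values, with an adjusted p of up to 0.136. Markers of other lineages were partly absent. *Tie1* (endothelium), *Ptprc*, *Adgre1*, *C1qa* and *C1qb* (macrophages) and *Adipoq*, *Fabp4*, *Lep* and *Cfd* (adipocytes) had 0 counts in every library. Other members of the same lists were detected, above all *Tek* (endothelium), at 8.74 ± 0.907 CPM in the normal group and 4.52 ± 0.992 CPM in the DM1 group (SD, n = 3; log2 fold change -0.95, adjusted p = 0.0107, edgeR, and 0.0526 without DM1 library 2), *Pparg* (adipocytes), at up to 10.1 CPM, and *Cd68* (macrophages), at up to 4.33 CPM. The summed endothelial markers were between 9.14 and 10.9 CPM in the normal group and between 5.06 and 6.71 CPM in the DM1 group, the macrophage markers between 3.40 and 4.56 CPM, and the adipocyte markers between 7.60 and 10.2 CPM. The part of the muscle, fibroblast and endothelial markers in the differences of the fusion genes was not tested beyond the ratios above.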

How the data were processed

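RNA-seq of 6 C2C12 libraries (3 CUG5, 3 CUG200; grouped and numbered by the sample labels) was read as deposited. The authors trimmed reads with Trim Galore, aligned them to GRCm38 with HISAT2 and quantified genes with StringTie, and versions are not given in the sources used here. They deposited raw counts per gene for all 6 libraries, and per library the coverage, FPKM and TPM values of StringTie, scaled for length (FPKM and TPM) and library size. Counts equalled coverage times length over 75 bases within 1 count in all libraries for 99.9% of 6270 genes with a single transcript, so a count is no read, and the smallest common step was 4 counts. Library totals were 61707889 to 80957325 counts. Each library was kept as 1 replicate by its label. The chi-square per degree of freedom between replicates was 40.0 to 151, on counts that are not fragments, so it does not decide replicate status.

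Genes were filtered with filterByExpr (minimum count 10; 19005 of 55421 kept), scaled by TMM (0.940 to 1.05), and compared with edgeR 4.0.16 in R 4.3.3 (quasi-likelihood, robust, no covariate, Benjamini-Hochberg adjustment). Adjusted p-values come from this fit unless another tool is named. The threshold was 0.05, with the log2 fold change cutoff of 1 as a second call. This differs from the study's DESeq2 test, which is among the alternatives. Standard errors and 95% intervals come from the same fit. Single ratios were tested with exact two-sided permutation tests in scipy 1.17.1, and figures were drawn with matplotlib 3.10.9. The alternatives were DESeq2 1.42.0, the size factors of DESeq2 in edgeR, no TMM factors, all genes unfiltered, at least 10 counts per library, no robust estimation, counts divided by 4, the replicate number as a block, limma 3.58.1 on log2(TPM + 1) and log2(TPM + 0.1), and each library left out. Fold changes on the log2(TPM + pseudocount) scale understate those of low genes. The fits were tested on simulated data.

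The members and lists were chosen with earlier results of these data known. By the rule for named genes, the 9 fusion genes were named, up to 4 genes in each direction with the smallest p from each of the other lists, always *Myod1*, *Myog*, *Myf6* and *Mef2c*, and the 5 genes most correlated with *Mymk* and with *Mymx*. Marker lists are given mainly as counts, and 1 gene that the rule names is not reported here. Annotation is GENCODE M21, in which all 9 genes have the span of the deposited files.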

Additional observations from a re-analysis of the deposited data

How the results depend on the processing

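Of the fusion genes, 2 were called lower and 0 higher, and 8 of the 10 alternatives that keep all libraries gave the same counts. In limma on log2(TPM + 1) and on log2(TPM + 0.1), 1 was called lower, *Cdh15*. With each library left out, 1 to 2 were called lower and 0 to 1 higher. The 1 higher was *Mymx*, whose log2 fold change was 0.19 to 0.25 when a library was left out and passed only without DM1 library 3, and was 0.09 in both TPM fits. *Jam2* changed sign, to -0.0256 and -0.0258 under the TPM fits. In the 5 fusion lists, 14 and 13 genes were called lower and 1 and 1 higher under the TPM fits with pseudocounts of 1 and 0.1, and 11 to 31 lower and 4 to 10 higher with a library left out. Over all genes the calls were 1356 higher and 1660 lower (45.0% higher), 352 and 673 (34.3%) under log2(TPM + 1) and 354 and 696 (33.7%) under log2(TPM + 0.1), and 543 to 1678 and 485 to 2111 with a library left out. The median of all genes moved from 0.02 to -0.09 under log2(TPM + 0.1). The log2 difference of *Cdh15* relative to the muscle markers was -0.17 from TPM in place of -0.13. The cause of these changes was not tested.

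Same-numbered libraries did not deviate together (r 0.0222 to 0.0675, and 4 of 6 libraries correlated best with their own number), so they were not treated as pairs. With the replicate number as a block, 1326 genes were higher and 1497 lower, the fusion genes again gave 2 lower and 0 higher, and *Mymk* was at -0.60 (adjusted p = 0.144, edgeR) and *Mymx* at 0.23 (0.0926).

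The tested fusion genes had over 1000 counts in every library, while *Adgrb1* and *Adgrb3* had at most 5 and 2 counts. Whether depth limited any call was not tested. With 3 libraries per group, a permutation of libraries cannot give a p below 0.1.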

Other observations

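The balance of the fusogens was looked at after the values were seen. *Mymk* exceeded *Mymx* in every library on the TPM scale, by 2.37, 3.59 and 2.61 times in the normal group and by 1.02, 1.79 and 2.26 times in the DM1 group. The lowest normal ratio was above the highest DM1 ratio (2.85 ± 0.648 against 1.69 ± 0.626, SD, n = 3; exact two-sided permutation p = 0.1, the smallest possible). The ratio of *Cdh15* to *Cdh2* was 3.77, 3.92 and 3.76 in the normal group and 3.44, 2.87 and 2.75 in the DM1 group, also without overlap (exact permutation p = 0.1).

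The genes whose log2 CPM followed that of *Mymk* most closely over the 6 libraries were *Tent4b* (Pearson r = 0.996), *9130023H24Rik* (0.995), *Mief1* (0.985), *Kcne4* (0.979) and *Cyren* (0.977). For *Mymx* they were *BC028528* (0.994), *Gm6063* (0.991), *Kank3* (0.989), *Nr4a1* (0.988) and *Gm7331* (0.988). These are the highest of 19005 genes over 6 points that share libraries and groups, and are given as a description. Over the 21 pairs of the 7 tested fusion genes, the correlation of deviations from the group means over 6 libraries ranged from -0.894 for *Mymk* with *Jam3* to 0.863 for *Cdh15* with *Cdh2*.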
